A study of Mus musculus with 8 samples.

Results

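The 10 genes described here encode the 4 platelet-derived growth factors (Pdgfa, Pdgfb, Pdgfc and Pdgfd), their receptors (Pdgfra and Pdgfrb), and 4 markers of the mural cells that wrap blood vessels (Rgs5, Myh11, Tagln and Cnn1). They were taken by symbol from the deposited table of 54532 genes, which lists each of them once, and all 10 passed the filter on low values. Whole-heart RNA of C57BL/6 mice had been sequenced in 8 libraries, with 2 in each of 4 groups: Piezo1-Cko mice after TAC surgery (Cko TAC), Piezo1-Cko mice after sham surgery (Cko sham), wild-type mice after TAC (WT TAC) and wild-type mice after sham surgery (WT sham). TAC stands for transverse aortic constriction, in which the aortic arch is tied to raise the pressure load on the heart, and Piezo1 encodes a channel that opens under membrane stretch. The labels name the strain, genotype and surgery, and not age, sex, time after surgery, the driver of the Cko allele or the cells and exons it affects. Whether each library is a different animal is also not given, and a p-value here speaks only of the spread among these libraries, which may be technical.

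PDGF ligands are dimers that bind receptor tyrosine kinases. The chains Pdgfa and Pdgfc act mainly through the alpha receptor, Pdgfra, while Pdgfb and Pdgfd act mainly through the beta receptor, Pdgfrb. In the heart, Pdgfra marks fibroblasts, and Pdgfrb marks pericytes of the capillaries and smooth muscle of larger vessels, which are drawn to the vessel wall by Pdgfb released from the endothelium. Rgs5 is a regulator of G protein signalling and is known for its high level in pericytes, and Myh11 (smooth muscle myosin heavy chain), Tagln (transgelin) and Cnn1 (calponin) belong to the contractile apparatus of smooth muscle.

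Several libraries stood apart before any comparison was made. Markers of atrial muscle summed to 479 FPKM in WT sham replicate 1 and to 1.43 to 2.88 in the other 7 libraries, and the same library had the highest sum of adipocyte markers (22.6 FPKM). WT TAC replicate 1 had the highest sums of activated fibroblast markers (649 FPKM) and of B cell markers (283 FPKM). Cardiomyocyte markers summed to 5557 to 8438 FPKM in the TAC libraries and 12061 to 14910.0 in the sham libraries, so the tissue label held in all 8. Piezo1 itself was at 5.24 and 3.89 FPKM in Cko TAC, 3.83 and 3.23 in Cko sham, 5.38 and 5.83 in WT TAC and 2.35 and 3.09 in WT sham. It was not lower in the libraries labelled Cko than in those labelled WT under sham surgery. A gene-level count over all cells does not check a conditional allele whose cells and exons are not given. Cko below is the label of these libraries.

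By FPKM, the order of mean levels was Rgs5, Pdgfb, Pdgfrb, Myh11, Pdgfd, Pdgfa, Cnn1, Pdgfra, Tagln and Pdgfc. FPKM here divides by all exonic bases listed for a gene, such as 10024 for Pdgfra and 5478 for Pdgfrb. Which transcripts were present is not known, so levels of different genes compare only roughly. The place of Tagln is also uncertain because most of its exonic bases are shared with other genes. Rgs5 was above Pdgfb in all 8 libraries, Myh11 above Pdgfd in all 8, and Pdgfra above Tagln in all 8. The other neighbours did not keep their order in every library: Pdgfb exceeded Pdgfrb in 7 of 8, Pdgfrb exceeded Myh11 in 7, Pdgfd exceeded Pdgfa in 7, Pdgfa exceeded Cnn1 in 6, Tagln exceeded Pdgfc in 5, and Cnn1 exceeded Pdgfra in 3. Rgs5, with a mean of 201 FPKM, lay at the 98.2 percentile of the tested genes by mean level, and Pdgfc, with a mean of 0.537 FPKM and 17 to 130 reads per library, at the 5.34 percentile.

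**Figure D1:**
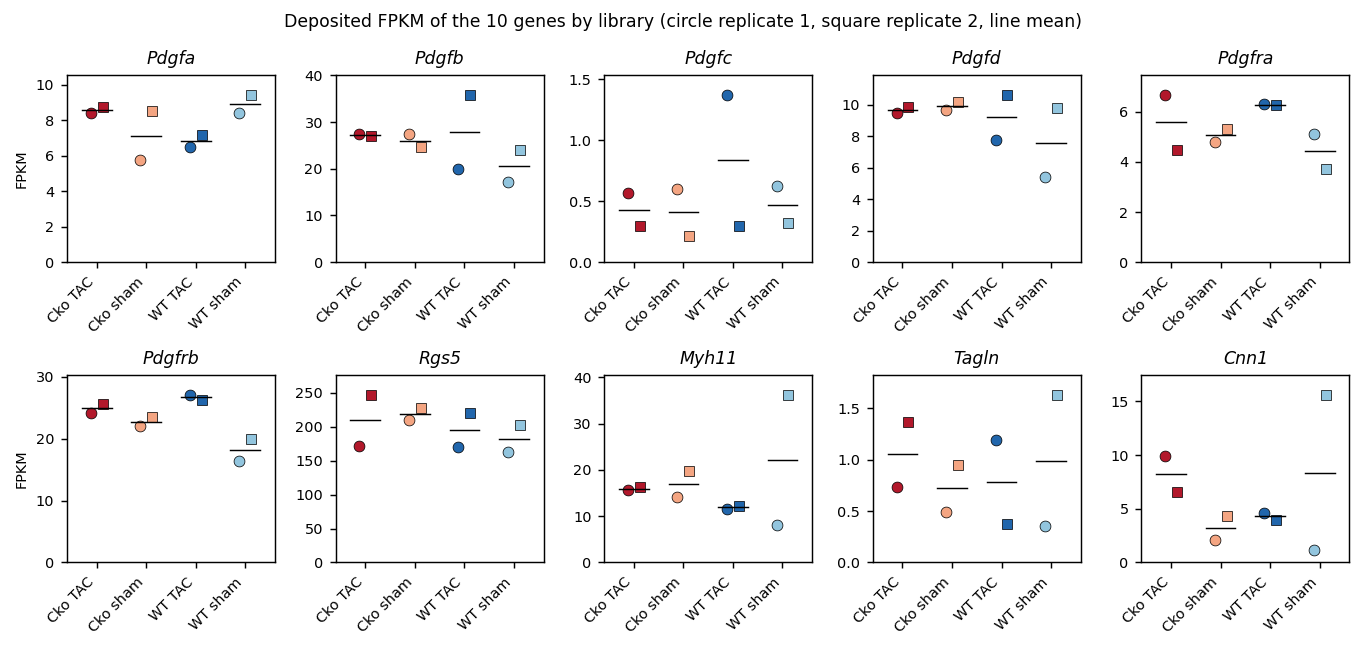
Deposited FPKM (vertical axis, from 0, a separate scale per gene) of the 10 genes in Cko TAC, Cko sham, WT TAC and WT sham hearts; circles are replicate 1, squares replicate 2 and lines the mean of both. Pdgfrb is at 27.1 and 26.3 FPKM in WT TAC, above 16.5 and 20.03 in WT sham, while the 2 WT sham libraries lie at the lowest and the highest value of Myh11, Tagln and Cnn1.

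Of the ligands, Pdgfb was the most abundant and none passed the test in any of the 6 comparisons. Pdgfb (chr15:79995874-80014977, minus strand), the chain released by endothelium, was at 27.5 and 27.0 FPKM in Cko TAC, 27.4 and 24.6 in Cko sham, 19.96 and 35.9 in WT TAC and 17.2 and 24.1 in WT sham. The WT TAC and WT sham libraries overlapped, because WT TAC replicate 1 lay below WT sham replicate 2, and the Cko libraries of both surgeries lay within a narrow band. On the log2(FPKM + 0.5) scale the TAC minus sham difference of Pdgfb was 0.07 in Cko (SE 0.27, adjusted p = 0.909) and 0.38 in WT (SE 0.27, adjusted p = 0.354; limma with Benjamini-Hochberg adjustment over 13928 tested genes, here and below). The ratio of Pdgfb to Pecam1, an endothelial adhesion molecule and 1 of 11 endothelial markers listed, was 0.405 to 0.528 over the 8 libraries. The 11 endothelial markers summed to 846 and 1074 FPKM in Cko TAC, 918 and 987 in Cko sham, 518 and 856 in WT TAC and 515 and 769 in WT sham. Over both genotypes 5 of these 11 had a positive TAC minus sham difference, with a median of -0.03, against 0.23 for Pdgfb. Only Vwf passed there, and it fell by 0.67 (adjusted p = 0.0231). That call was lost without WT sham replicate 1, WT TAC replicate 2 or Cko sham replicate 1. The part of the endothelial markers in the values of Pdgfb was not tested. In bulk tissue, fewer cells of a type and less RNA per cell cannot be told apart.

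Pdgfa (chr5:138976014-138997370, minus strand), a ligand of the alpha receptor, was at 8.40 and 8.76 FPKM in Cko TAC, 5.73 and 8.50 in Cko sham, 6.50 and 7.18 in WT TAC and 8.44 and 9.45 in WT sham. Both WT TAC libraries lay below both WT sham libraries, whereas the Cko TAC libraries overlapped those of Cko sham and lay above those of WT TAC. The TAC minus sham log2 difference of Pdgfa was 0.28 in Cko (SE 0.18, adjusted p = 0.423) and -0.36 in WT (SE 0.18, adjusted p = 0.205), and neither passed. The interaction, the Cko response minus the WT response, was 0.64 for Pdgfa with an unadjusted p of 0.0399 and did not pass after adjustment (adjusted p = 0.911). Of the 3119 exonic bases of Pdgfa, 813 also lie in exons of the antisense gene 6330403L08Rik, and since no source gives the strand option of the counting, reads of the 2 genes cannot be told apart there.

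Pdgfd (chr9:6168584-6378850, plus strand), a ligand of the beta receptor that is cleaved before it can act, was at 9.48 and 9.85 FPKM in Cko TAC, 9.64 and 10.2 in Cko sham, 7.76 and 10.6 in WT TAC and 5.42 and 9.77 in WT sham. WT sham replicate 1 stood below the other 7 libraries, which lay between 7.76 and 10.6 FPKM. The TAC minus sham log2 difference of Pdgfd was -0.03 in Cko (adjusted p = 0.955) and 0.30 in WT (adjusted p = 0.447). Pdgfc (chr3:81036416-81214040, plus strand), the other ligand that needs cleavage, was at 0.565 and 0.296 FPKM in Cko TAC, 0.603 and 0.218 in Cko sham, 1.37 and 0.301 in WT TAC and 0.622 and 0.319 in WT sham. Replicate 1 was above replicate 2 in all 4 groups, and 4 of the 8 libraries reached 0.5 FPKM. Groups overlapped in every comparison of Pdgfc, and its log2 differences were 0.05 in Cko and 0.35 in WT (adjusted p = 0.960 and 0.590). The 11 clock genes also differed by replicate number: they summed to 117 and 146 FPKM in Cko TAC, 36.6 and 159 in Cko sham, 45.5 and 109 in WT TAC and 63.3 and 154 in WT sham, higher in replicate 2 of every group. Arntl, which encodes the clock activator BMAL1, ran the other way in 3 of the 4 groups and was at 0.375 and 0.377 FPKM in Cko TAC, 3.89 and 1.04 in Cko sham, 4.02 and 1.39 in WT TAC and 3.96 and 0.796 in WT sham. The part of this split in the Pdgfc values was not tested.

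Pdgfrb, the beta receptor of pericytes and smooth muscle (chr18:61045150-61085061, plus strand), was the only one of the 10 genes to pass the test, and it rose with TAC in WT hearts. It was at 24.2 and 25.6 FPKM in Cko TAC, 22.1 and 23.5 in Cko sham, 27.1 and 26.3 in WT TAC and 16.5 and 20.03 in WT sham. All WT TAC libraries lay above all WT sham libraries, and the Cko libraries of both surgeries lay between these groups, with Cko TAC just above Cko sham. In WT the level after TAC was 1.46 times that after sham surgery (95% confidence interval 1.18 to 1.796; log2 difference 0.54, SE 0.13, adjusted p = 0.0374). Of all tested genes 5.57% rose and 7.65% fell in that comparison, 13.2% in all, so 1 of 10 called is close to the background. Groups without overlap were common at this size: WT TAC lay wholly above WT sham for 31.3% of tested genes and below for 30.9%, and members did so for 2 genes (Pdgfra and Pdgfrb) and 1 gene (Pdgfa). In Cko these shares were 28% and 28.3%, with Pdgfrb and Cnn1 above and no member below. In Cko the fold was 1.09 (95% confidence interval 0.885 to 1.35, adjusted p = 0.616), and no member passed, where 0.948% of tested genes rose and 0.546% fell, 1.49% in all. The difference between the genotypes' responses did not pass either (interaction -0.42, SE 0.18, adjusted p = 0.911). Averaged over both genotypes Pdgfrb was 1.26 times as high after TAC (log2 difference 0.33, SE 0.0919, adjusted p = 0.0352), again as the only member called, where 11.9% of tested genes rose and 13.5% fell, 25.4% in all. Its TAC libraries all lay above its sham libraries, which held for 13.1% of tested genes, while 14.6% lay wholly below. The deposited FPKM rest on a library size scaled between libraries. Scaling to the total of reads instead moved the median log2 difference of all tested genes by 0.20 in WT, 0.18 in Cko and 0.19 over both, and Pdgfrb then stood at 0.55 over both genotypes.

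Both calls of Pdgfrb were narrow. The WT call was lost when either WT sham library (0.110 and 0.0710 as adjusted p, for replicates 1 and 2), either WT TAC library (0.145 and 0.0842) or either Cko sham library (0.0768 and 0.0766) was left out, and it held without either Cko TAC library. The log2 difference stayed between 0.41 and 0.68 in these 8 fits. Without both WT libraries of replicate 1, the ones with atrial, adipocyte, B cell and fibroblast signal, it was 0.38 (adjusted p = 0.236). The call over both genotypes held without WT sham replicate 2 (adjusted p = 0.0306) and was lost without any one of the other 7 libraries. With no filter on low values the adjusted p was 0.0871 in WT and 0.0767 over both, and with only the WT libraries in the fit it was 0.0980.

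Pdgfra, the alpha receptor of fibroblasts (chr5:75152292-75198215, plus strand), did not pass. It was at 6.68 and 4.48 FPKM in Cko TAC, 4.80 and 5.32 in Cko sham, 6.32 and 6.25 in WT TAC and 5.12 and 3.73 in WT sham. Both WT TAC libraries were above both WT sham libraries, and the Cko groups overlapped. The TAC minus sham log2 difference of Pdgfra was 0.11 in Cko (SE 0.21, adjusted p = 0.807) and 0.48 in WT (SE 0.21, adjusted p = 0.155). With scaling to total reads it passed over both genotypes, at 0.49 (adjusted p = 0.0440). The ratio of Pdgfrb to Pdgfra, both per length, was 3.62 and 5.72 in Cko TAC, 4.60 and 4.41 in Cko sham, 4.29 and 4.21 in WT TAC and 3.22 and 5.37 in WT sham. It was higher in replicate 2 than in replicate 1 of Cko TAC and WT sham. These 2 groups spanned the values of the others. Of 11 fibroblast markers, 2 rose with TAC in Cko, and 4 rose and 1 fell in WT. Of 9 activated fibroblast markers, 0 passed in Cko and 4 rose in WT. Their median log2 difference was 2.21 in Cko and 2.27 in WT, with 8 and 9 of the 9 positive. Over both genotypes 7 of the 9 rose, beside 11.9% of all tested genes, so the genotypes differed in calls more than in size. Postn, which encodes the matrix protein periostin, was 9.09-fold higher in Cko TAC than Cko sham (adjusted p = 0.0547, not called) and 7.17-fold higher in WT TAC than WT sham (adjusted p = 0.0320). This WT call was lost without WT sham replicate 1, WT sham replicate 2, WT TAC replicate 1 or either Cko sham library. Of the 5 markers of dividing cells, such as Mki67, 4 rose with TAC in Cko and all 5 in WT. Of all tested genes, 0.948% rose in Cko, and 5.57% rose and 7.65% fell in WT. With Cko sham replicate 1 or replicate 2 left out, 0 of all tested genes passed in Cko.

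**Figure D2:**
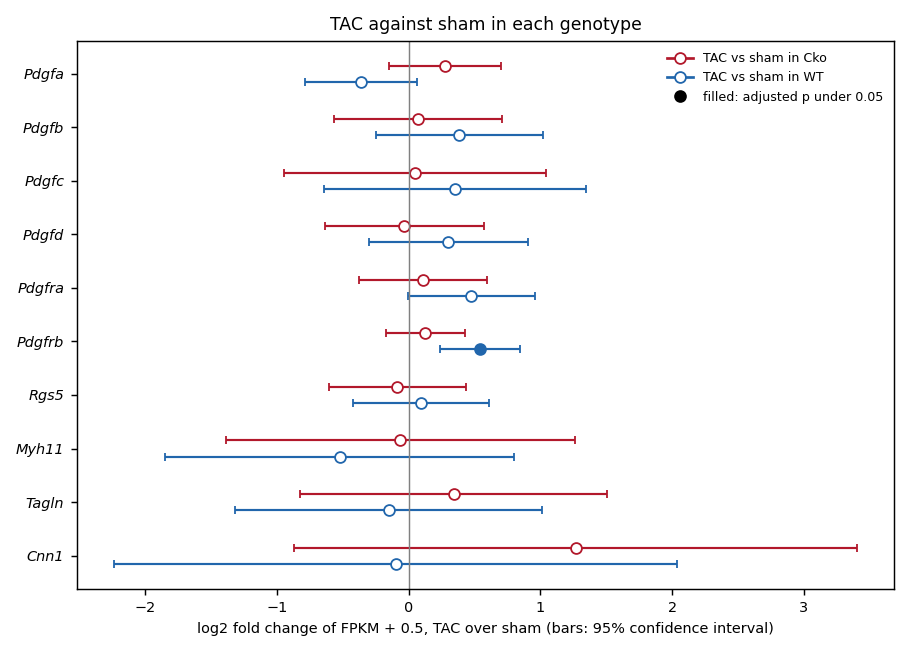
TAC minus sham difference on the log2(FPKM + 0.5) scale (horizontal axis) for each of the 10 genes (vertical axis), in Cko (red, upper) and WT (blue, lower), with 95% confidence intervals from limma. Only the WT value of Pdgfrb, 0.54, is filled as past an adjusted p of 0.05, and the intervals of Cnn1, Myh11 and Tagln are the widest.

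**Figure D3:**
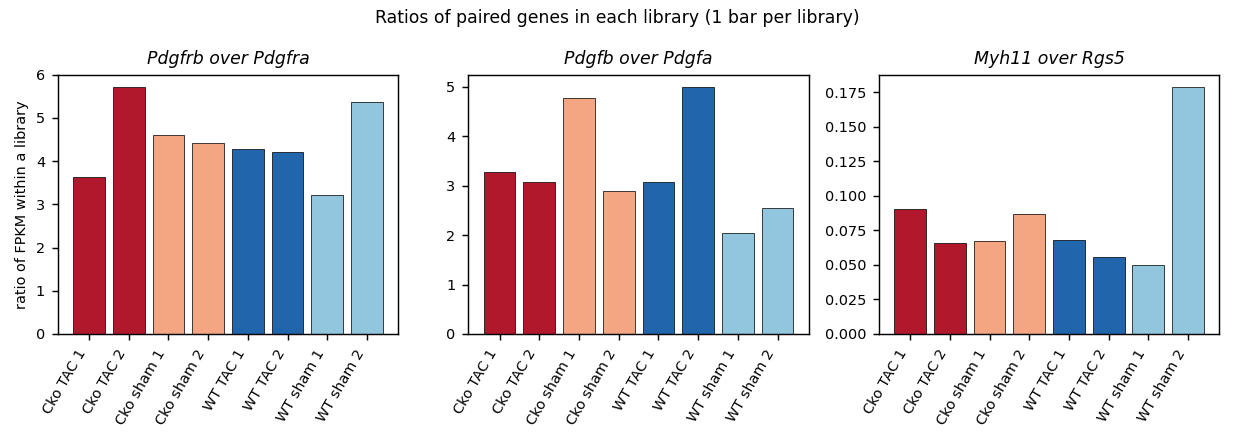
Ratio of FPKM within each library (vertical axis, from 0) for Pdgfrb over Pdgfra, Pdgfb over Pdgfa, and Myh11 over Rgs5, with 1 bar per library in the order Cko TAC, Cko sham, WT TAC and WT sham. The receptor ratio is 3.22 to 5.72, the ligand ratio 2.04 to 5.002, and Myh11 over Rgs5 is 0.179 in WT sham replicate 2 against 0.0498 to 0.0907 in the other 7 libraries.

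The pericyte gene Rgs5 (chr1:169655501-169695813, plus strand) did not pass in any comparison. It was at 172 and 247 FPKM in Cko TAC, 210.1 and 227 in Cko sham, 169.9 and 220.2 in WT TAC and 163 and 202 in WT sham. Replicate 2 was above replicate 1 in every group, and the TAC and sham libraries overlapped in both genotypes. Over both genotypes the TAC level was 1.00 times the sham level (95% confidence interval 0.778 to 1.29, adjusted p = 0.990), with 0.942 in Cko (0.658 to 1.35) and 1.07 in WT (0.744 to 1.53). The upper bound over both genotypes exceeds the fold of 1.26 found for Pdgfrb, so a rise of that size in Rgs5 was not excluded here. Of the 13 other pericyte markers, 0 passed in Cko, and 1 rose and 0 fell in WT, beside 5.57% and 7.65% of all tested genes. The median log2 difference of these markers was -0.24 in Cko and -0.09 in WT, against 0.00 and 0.01 over all tested genes. The gene that rose was Mcam, the adhesion molecule CD146, which is also made by endothelium, at 51.0 and 42.1 FPKM in Cko TAC, 27.9 and 28.6 in Cko sham, 46.9 and 52.6 in WT TAC and 17.8 and 27.0 in WT sham. All Mcam values after TAC exceeded all after sham surgery. It was 1.91-fold higher over both genotypes (adjusted p = 0.00652), a call that no left-out library ended. In WT it was 2.24-fold higher (adjusted p = 0.0203), which was lost without WT sham replicate 1 or WT TAC replicate 1. Over both genotypes Abcc9, a potassium channel subunit listed here as a pericyte marker, fell by 0.39 on the log2 scale (adjusted p = 0.0380). It kept its call without WT sham replicate 2 or WT TAC replicate 2 and lost it without any other library. In that comparison 5 of 8 cardiomyocyte markers fell too (median -0.80), and which cells the Abcc9 value came from was not tested. The 13 pericyte markers summed to 257 and 294 FPKM in Cko TAC, 283 and 306 in Cko sham, 214 and 273 in WT TAC and 201 and 277 in WT sham, with 6 of them lowest in WT sham replicate 1 and 6 lowest in WT TAC replicate 1.

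The 3 contractile members differed most between the 2 WT sham libraries. Myh11, the smooth muscle myosin heavy chain (chr16:14194535-14291372, minus strand), was at 15.6 and 16.2 FPKM in Cko TAC, 14.1 and 19.7 in Cko sham, 11.5 and 12.2 in WT TAC and 8.12 and 36.2 in WT sham. Cnn1, the actin-binding calponin of smooth muscle (chr9:22099216-22109630, plus strand), was at 9.91 and 6.54 FPKM in Cko TAC, 2.10 and 4.37 in Cko sham, 4.60 and 3.997 in WT TAC and 1.13 and 15.6 in WT sham, from 500 and 309, 88 and 183, 234 and 193, and 44 and 606 reads in the same order of groups. Tagln, the actin-bundling transgelin (chr9:45929619-45936058, minus strand), was at 0.737 and 1.37 FPKM in Cko TAC, 0.492 and 0.953 in Cko sham, 1.19 and 0.370 in WT TAC and 0.354 and 1.63 in WT sham, from 10 to 47 reads per library. For all 3 genes, WT sham replicate 1 was the lowest and WT sham replicate 2 the highest of the 8 libraries, so the other 3 groups lay inside the range of WT sham. Within that group the second library was 13.8-fold above the first for Cnn1, 4.61-fold for Tagln and 4.46-fold for Myh11. Those folds are of FPKM. On the log2(FPKM + 0.5) scale the differences were 3.30 for Cnn1, 1.32 for Tagln and 2.09 for Myh11, since the added 0.5 shrinks those of low genes. A difference at least as large on that scale was found in 0.0862% of tested genes for Cnn1, 0.337% for Myh11 and 1.48% for Tagln. A difference of at least 2 on that scale between the libraries of a group was found for 0.172% of tested genes in Cko TAC and 0.101% in Cko sham. In WT TAC it was found for 0.503% and in WT sham for 0.402%. Among members it was found for Cnn1 and Myh11 in WT sham alone. Pdgfc in WT TAC differed 4.57-fold in FPKM and by 1.23 on that scale. Related genes showed the split too: Acta2, smooth muscle actin, was at 147 and 153 FPKM in Cko TAC, 93.5 and 135 in Cko sham, 81.4 and 108 in WT TAC and 57.0 and 258 in WT sham, and Actg2, its enteric counterpart, at 5.96 and 5.20 FPKM in Cko TAC, 0.838 and 1.64 in Cko sham, 2.18 and 2.00 in WT TAC and 1.13 and 9.78 in WT sham. Of the 13 contractile genes listed beside the members, 10 were highest in WT sham replicate 2 and 5 were lowest in WT sham replicate 1, and their FPKM summed to 891 and 895 FPKM in Cko TAC, 717 and 823 in Cko sham, 904 and 788 in WT TAC and 690.2 and 1258 in WT sham. Such a sum weighs the abundant genes most. The mean log2 level of the 13, minus that over 8 libraries, was 0.08 and 0.08 in Cko TAC and -0.16 and 0.09 in Cko sham. It was -0.23 and -0.24 in WT TAC and -0.40 and 0.77 in WT sham. Of the 13 pericyte markers, 1 was highest in WT sham replicate 2 and 6 were lowest in WT sham replicate 1. Their mean on the same log2 scale was -0.31 and 0.05 in WT sham. Myh11 over Rgs5 was 0.0907 and 0.0658 in Cko TAC, 0.0670 and 0.0867 in Cko sham, 0.0678 and 0.0556 in WT TAC and 0.0498 and 0.179 in WT sham. The part of these marker levels in the values of the 3 members was not tested.

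**Figure D4:**
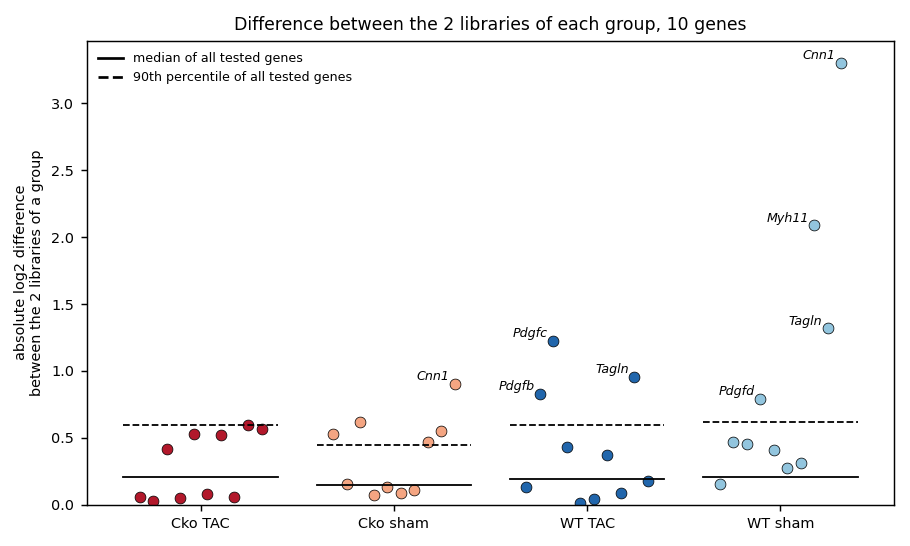
Absolute difference in log2(FPKM + 0.5) between the 2 libraries of each group (vertical axis) for the 10 genes (points, in the order ligands, receptors, mural markers), with the median and the 90th percentile of all tested genes as solid and dashed lines. In WT sham, Cnn1 is at 3.30, Myh11 at 2.09 and Tagln at 1.32, and in the other 3 groups no gene exceeds 1.23, the value of Pdgfc in WT TAC.

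**Figure D5:**
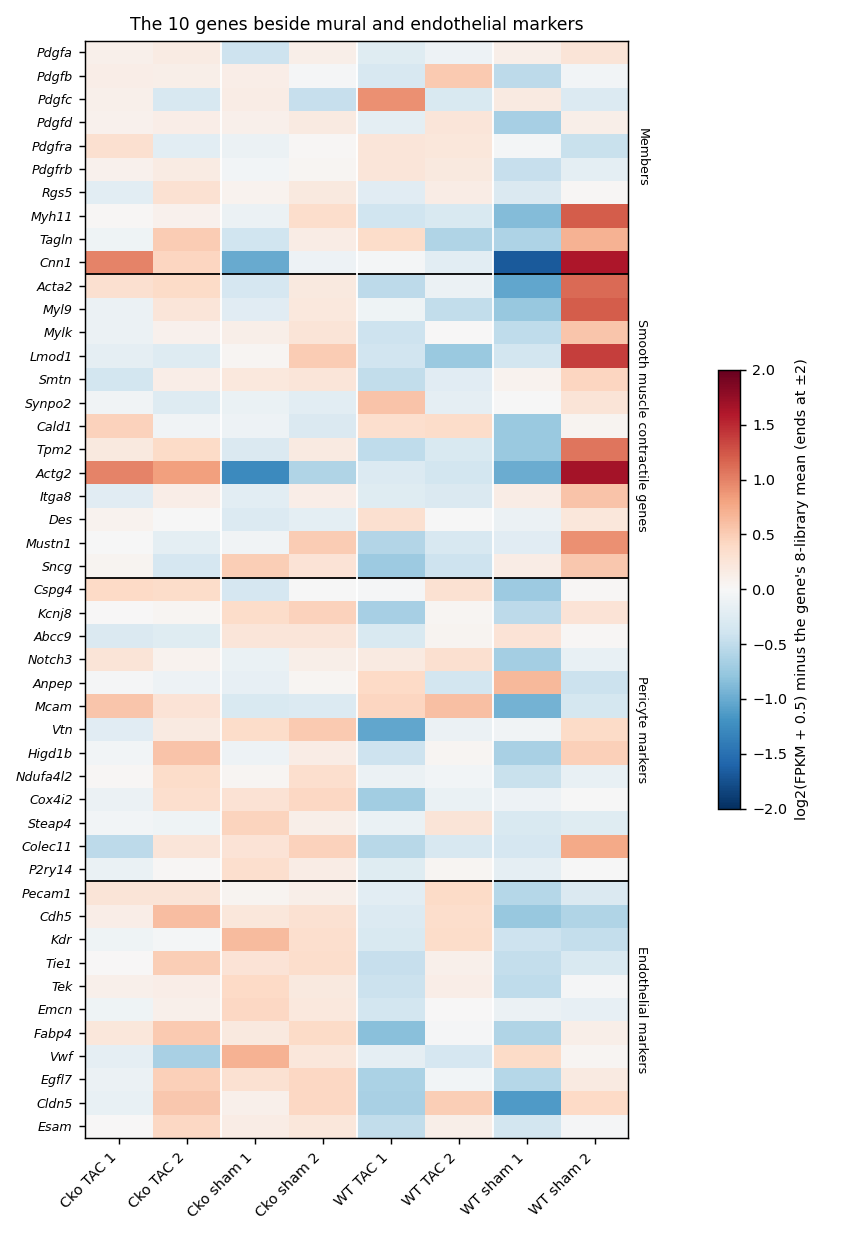
log2(FPKM + 0.5) minus the 8-library mean of each gene (colour, ending at ±2) for the 10 genes and for smooth muscle contractile, pericyte and endothelial markers (rows) in the 8 libraries (columns). In WT sham 2, 10 of the 13 contractile genes and 1 of the 13 pericyte markers are highest, and in WT sham 1, 5 and 6 of them are lowest.

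None of the 3 contractile members passed any comparison when all libraries were used. The TAC minus sham log2 difference of Myh11 was -0.07 in Cko (SE 0.57, adjusted p = 0.959) and -0.52 in WT (SE 0.57, adjusted p = 0.547). That of Tagln was 0.34 in Cko (adjusted p = 0.738) and -0.15 in WT (adjusted p = 0.852). That of Cnn1 was 1.27 in Cko (SE 0.91, adjusted p = 0.466), where both TAC libraries lay above both sham libraries, and -0.10 in WT (SE 0.91, adjusted p = 0.952). The direction depended on which WT sham library was used. Without WT sham replicate 1, Myh11 fell with TAC in WT by 1.57 (adjusted p = 0.0375) and over both genotypes by 0.82 (adjusted p = 0.0159). Without WT sham replicate 2 its WT value was 0.52 (adjusted p = 0.187). Without WT sham replicate 2, Cnn1 rose over both genotypes by 1.41 (adjusted p = 0.0212). With WT sham replicate 1 left out instead, the value was -0.24 (adjusted p = 0.514). In each of these fits the remaining WT sham library was assumed to vary like the other groups. Of the 13 further contractile genes 0 passed in Cko, and 0 rose and 1 fell in WT, beside 5.57% and 7.65% of all tested genes. The gene that fell was Sncg, a synuclein, by 0.91 (adjusted p = 0.0313). This call was lost without WT sham replicate 1, WT sham replicate 2, WT TAC replicate 1 or either Cko sham library. Over both genotypes Sncg (by 0.72) and the cytoskeletal gene Smtn (by 0.48) fell, with adjusted p of 0.0127 and 0.0470. The first was lost without Cko sham replicate 1, and the second held only without WT sham replicate 1 or Cko TAC replicate 2.

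Over the 8 libraries, the genes whose pattern was most like that of Myh11 were Myl9, Tpm2 and Acta2, with root mean square log2 differences of 0.167, 0.171 and 0.205 beside a spread of 0.574 for Myh11 itself. The log2 range of Myh11, 2.09, was that between the 2 WT sham libraries, where Myl9, Tpm2 and Acta2 differed by 1.98, 1.82 and 2.17. Those 2 libraries therefore weigh heavily in the match. Myl9, Tpm2 and Acta2 are genes of the smooth muscle filaments and none was selected for its role, as the search ran over 2170 genes that had at least 2 FPKM on average and a log2 range of at least 1. The log2 ranges of Pdgfrb (0.70), Pdgfra (0.76) and Rgs5 (0.598) lay under that limit, so genes that varied as little as these 3 were not searched. Among the more variable genes, those most like Pdgfrb were Phldb2, Fmnl3 and Galnt10 (0.129 to 0.145 beside its own 0.218), those most like Pdgfra were Pitpnb, Arfgap2 and Tm9sf1 (0.124 to 0.130 beside 0.242), and those most like Rgs5 were Cdc42ep1, Btnl9 and Ssu2 (0.167 to 0.180 beside 0.206).

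The low level of Tagln beside its partners needs its gene model. Acta2 was 68.4 to 293 times as high as Tagln across the 8 libraries, both per length. Of the 1988 exonic bases of Tagln on GRCm38, 1349 (67.9%) also lie in exons of other genes: 1241 in the antisense gene Gm48529 and 108 in Pcsk7, which encodes a proprotein convertase. The shared part includes all 603 coding bases of the transcript Tagln-201. Gm48529 was listed with 3 to 16 reads per library. Neither the strand setting nor the handling of reads that lie in 2 genes is stated, so their part in the level of Tagln was not tested and its values are uncertain. Pdgfra (6.50%) and Pdgfc (2.89%) share small parts, and the other 6 members none.

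The stretch shown is the first 120 coding bases of Tagln-201 (GRCm38, chr9:45931642-45931761, minus strand), 5′ to 3′, with the bases that another gene's exons cover in capitals: all 120 are covered.
Tagln: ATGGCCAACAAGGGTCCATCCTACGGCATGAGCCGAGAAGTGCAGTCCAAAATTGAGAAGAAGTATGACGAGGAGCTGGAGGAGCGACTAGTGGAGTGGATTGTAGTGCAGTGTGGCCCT

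The promoters of 3 genes are shown because Cnn1 and Myl9 followed the split between the WT sham libraries and Pdgfc is the member promoter with a CArG box, the motif bound by serum response factor at many contractile genes. Each runs 250 bases before to 50 after the start of the gene (RefSeq, GRCm38.p6, plus strand): chr9:22099003-22099302 for Cnn1, chr2:156775214-156775513 for Myl9 and chr3:81036166-81036465 for Pdgfc. Capitals mark the CArG box, searched on both strands.
Cnn1: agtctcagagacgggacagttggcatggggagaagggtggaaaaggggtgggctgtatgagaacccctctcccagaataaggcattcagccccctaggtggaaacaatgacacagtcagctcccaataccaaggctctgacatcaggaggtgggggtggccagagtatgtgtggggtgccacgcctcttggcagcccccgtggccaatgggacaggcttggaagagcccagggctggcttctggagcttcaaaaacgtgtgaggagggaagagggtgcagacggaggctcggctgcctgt
Myl9: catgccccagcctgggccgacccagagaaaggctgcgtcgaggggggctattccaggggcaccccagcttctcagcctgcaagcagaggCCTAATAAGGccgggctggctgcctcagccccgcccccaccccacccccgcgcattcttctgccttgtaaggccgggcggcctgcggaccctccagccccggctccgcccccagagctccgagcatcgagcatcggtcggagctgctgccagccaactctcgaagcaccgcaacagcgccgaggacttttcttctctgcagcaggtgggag
Pdgfc: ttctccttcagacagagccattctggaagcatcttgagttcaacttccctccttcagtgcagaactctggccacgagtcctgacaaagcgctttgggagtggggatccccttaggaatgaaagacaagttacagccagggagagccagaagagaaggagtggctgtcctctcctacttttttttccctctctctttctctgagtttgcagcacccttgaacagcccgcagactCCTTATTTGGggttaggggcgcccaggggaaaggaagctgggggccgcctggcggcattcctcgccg
The box begins 161 bases before the start of Myl9 and 17 bases before that of Pdgfc, and this window of Cnn1 holds none. Of 7 promoters matched to 6 members, 1 held a box (14.3%), and of 13 matched to 12 contractile genes, 1 did (7.69%). Among all 32851 promoters of the same length, 535 did (1.63%). A match is a description of these letters only.

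Between the genotypes none of the 10 genes passed under either surgery. Under sham surgery 3 of 13928 genes passed (0.0215%; 0.0144% higher and 0.00718% lower in Cko), and under TAC 0 did (0%), by limma on FPKM. By limma-voom on the recovered reads 2 passed under sham surgery and 0 under TAC. At an unadjusted p under 0.05, limma on FPKM counted 1269 genes under TAC. Pdgfrb came closest: in sham hearts it was at 22.1 and 23.5 FPKM in Cko, against 16.5 and 20.03 in WT, a log2 difference of 0.32 (unadjusted p = 0.042, adjusted p = 0.631). Libraries of Pdgfb, Pdgfrb and Rgs5 did not overlap under sham surgery, with Cko above WT for all 3, where 19.3% of tested genes lay above in this way. The 11 endothelial markers had a positive sham difference too, 11 of 11 with a median of 0.55, as did 12 of 13 pericyte markers with a median of 0.34, none of them called. The part of these marker levels in the 3 members was not tested. Under TAC, both Cko libraries lay above both WT libraries for Pdgfa, Myh11 and Cnn1 and below them for Pdgfrb, against a background of 20.3% above and 19.4% below. The log2 differences there were 0.31, 0.41, 0.84 and -0.10, with adjusted p of 0.632 to 0.826. The interaction passed for 1 gene of all tested (0.00718%), which is no member, and none of the listed pathway or marker genes passed in either genotype comparison or in the interaction.

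Of the genes around the receptors, Shc1, Crk, Stat3, Ptpn1, Cbl, Lrp1 and Plat rose with TAC over both genotypes. Among 17 genes that relay the signal of PDGF receptors, 0 passed in Cko and 2 rose in WT (median log2 difference 0.07 and 0.22, against 0.00 and 0.01 over all tested genes). Of all tested genes 5.57% rose in WT and 11.9% over both genotypes, so at lists of 8 and 17 genes these counts and the next ones are close to the background. The adaptor Shc1 was at 11.0 and 10.2 FPKM in Cko TAC, 7.57 and 7.21 in Cko sham, 10.9 and 10.7 in WT TAC and 6.41 and 6.39 in WT sham, and all TAC values exceeded all sham values. In WT it was 1.64-fold higher (adjusted p = 0.0171, lost without WT sham replicate 2 or WT TAC replicate 1), and over both genotypes 1.51-fold (adjusted p = 0.00468, kept without each library in turn). The adaptor Crk rose 1.54-fold in WT (adjusted p = 0.0439, lost without any of the 4 WT or the 2 Cko sham libraries) and 1.44-fold over both genotypes (adjusted p = 0.0168, lost without either Cko sham library). Over both genotypes 3 relay genes rose, the third being the transcription factor Stat3 by 0.63 on the log2 scale (adjusted p = 0.0113, lost without Cko sham replicate 1). Of 8 genes that limit the receptors, 0 passed in either genotype and 2 rose over both: the tyrosine phosphatase Ptpn1 by 0.58 (adjusted p = 0.0187) and the ubiquitin ligase Cbl by 0.40 (adjusted p = 0.0351). Of 8 genes that cleave the ligands or act as co-receptors, 0 passed in either genotype and 2 rose over both: Lrp1, a scavenger and co-receptor, by 0.62 (adjusted p = 0.0440), and Plat, the protease that activates Pdgfc, by 0.54 (adjusted p = 0.0462). The call of Ptpn1 was lost without WT sham replicate 2, WT TAC replicate 1 or Cko sham replicate 1. Leaving out 1 library also ended the call of Cbl, unless it was WT sham replicate 1 or Cko TAC replicate 2. That of Lrp1 held only without WT TAC replicate 2 or Cko TAC replicate 2, and that of Plat only without WT sham replicate 1. Of 11 tested regulators of mural cells, such as Srf and Myocd, none passed in these 3 comparisons.

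Among relatives of the contractile and pericyte members, 2 of 4 calponin and transgelin paralogs rose over both genotypes, and 2 of 3 non-muscle myosin heavy chains rose and 1 fell, where 25.4% of all tested genes were called in either direction. The broadly expressed calponin Cnn3 was at 33.4 and 32.4 FPKM in Cko TAC, 22.8 and 25.7 in Cko sham, 35.2 and 31.9 in WT TAC and 20.4 and 22.0 in WT sham, and the transgelin paralog Tagln2 at 112 and 111 FPKM in Cko TAC, 61.7 and 62.1 in Cko sham, 77.4 and 106 in WT TAC and 56.7 and 63.8 in WT sham. Over both genotypes Cnn3 was 1.46-fold and Tagln2 1.64-fold higher after TAC (adjusted p = 0.00720 and 0.00793), and the non-muscle myosin heavy chain Myh9 1.504-fold (adjusted p = 0.00687). None of these 3 calls was lost when 1 library was left out. For each of these genes every TAC value lay above every sham value. Of the other non-muscle heavy chains, Myh10 rose by 0.67 (adjusted p = 0.0240, lost without WT sham replicate 2, WT TAC replicate 1, Cko TAC replicate 1 or either Cko sham library). Myh14 fell by 0.58 (adjusted p = 0.0151, lost without Cko sham replicate 1 or Cko TAC replicate 1). In WT alone Cnn3, Myh9 and Myh10 passed, with adjusted p of 0.0238, 0.0222 and 0.0364. Each of these WT calls was lost without either WT sham library, WT TAC replicate 1 or either Cko sham library, and that of Myh9 also without WT TAC replicate 2. In WT 13.2% of all tested genes were called, and in Cko none of the 4 calponin and transgelin paralogs or 3 myosins did. Of 16 further Rgs genes 10 were tested, of which 3 rose and 1 fell over both genotypes, beside 11.9% and 13.5% of all tested genes. Rgs2, which dampens signals of vasoconstrictors, fell by 0.83 (adjusted p = 0.0212, lost without WT sham replicate 1 or either Cko sham library). Rgs16 rose by 1.09 (adjusted p = 0.0239, lost without WT sham replicate 1, WT TAC replicate 2, Cko TAC replicate 1 or either Cko sham library). Rgs10 rose by 0.42 (adjusted p = 0.0238, held only without WT sham replicate 1 or WT TAC replicate 2). Without both WT libraries of replicate 1, the calls of Shc1, Stat3, Plat, Mcam, Sncg, Rgs16, Cnn3, Tagln2, Myh9, Myh10 and Myh14 over both genotypes were kept, while in WT none of the genes named here passed. With no filter on low values, the calls over both genotypes that were kept among the genes named from the PDGF pathway, mural marker, Rgs and paralog lists were those of Shc1, Stat3, Crk, Mcam, Sncg, Cnn3, Tagln2, Myh9 and Myh14, and in WT that of Shc1. Scaling to total reads ended the falls of Abcc9, Smtn and Myh14 over both genotypes and of Sncg in WT, limma-voom ended the rise of Postn in WT, and a fit to the WT libraries alone ended the WT calls of Shc1, Crk, Mcam, Sncg, Rgs2, Cnn3, Myh9, Myh10 and Postn.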

How the data were processed

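The authors deposited 1 table of FPKM (fragments relative to gene length and library size) for 54532 genes in 8 libraries. RNA was extracted with Trizol, and NEBNext Ultra libraries were made, per the labels' protocols. The submitters' processing notes list builds (mm10, mm8) and tools (featureCounts 1.5.0-p3, Bowtie 0.12.2, CASAVA 1.8) without roles. Which option was used for strand is not given in the sources used here. All values above 0 (100%) gave whole reads after multiplication by gene length, within 0.01 of a read, and these reads summed to 15574769 to 17313084 per library.

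limma 3.58.1 in R 4.3.3 (trend and robust moderation) was fitted to log2(FPKM + 0.5) of all 8 libraries with 1 term per group, for 13928 genes with at least 0.5 FPKM and 10 reads in at least 2 libraries. It had 4 residual degrees of freedom and a median of 3.54 prior ones. The 6 comparisons were TAC against sham in Cko, in WT and over both, Cko against WT under each surgery, and the interaction. Tests were two-sided, with Benjamini-Hochberg adjustment over the tested genes of a comparison and a threshold of 0.05. The added 0.5 makes fold changes of low genes too small. The script was tested on simulated data.

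The members and lists were chosen with earlier results of these data known. All 10 members are named throughout. From each list, up to 3 genes that passed with the smallest p are named, or 1 that did not pass; Postn, Mki67, Acta2, Actg2, Arntl, Pecam1 and Piezo1, and the single genes given as examples of a role, are named for context. Gene spans match GENCODE M21 (GRCm38) for all 10 members. The promoter windows come from RefSeq. Alternatives were other pseudocounts, no filter, scaling to total reads, limma-voom on the recovered reads with TMM factors, a fit to only the libraries compared, a replicate block, and leaving out each library or, added after the data were seen, both WT libraries of replicate 1.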

Additional observations from a re-analysis of the deposited data

Results flagged for a closer look

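For 4 genes beside the members, both TAC libraries lay below both sham libraries in Cko and above them in WT, a split that was flagged without a test. It was seen in 4 of the 88 members and genes named from the lists, and in 1.18% of 13928 tested genes (165). These shares cannot be compared, because genes were named by smallest p, also in the interaction. Each of the 4 had the smallest interaction p of its list. The opposite split was seen in 0 of these 88 and in 193 tested genes. The log2 difference between TAC and sham was -0.0246 in Cko and 0.34 in WT for Ptpn2, a phosphatase that limits PDGF receptors, -0.35 and 0.33 for the pericyte marker Steap4, -0.17 and 0.42 for Heyl, a Notch target of mural cells, and -0.55 and 0.47 for Kdr, the endothelial receptor of VEGF, in the same order of groups. In limma's interaction term none of the 4 passed, with an adjusted p of 0.911 for each. No member was flagged.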

How the results depend on the processing

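Over the members and named genes, 1943 values were recomputed; 1642 stayed on their side of the threshold, 296 lost a call and 5 gained 1. No called value changed sign, and 68 uncalled ones did. Genes called with TAC in WT (1842) were 247 with no filter, 365 when only the libraries compared were fitted, 1 without both WT libraries of replicate 1, and 74 to 2120 without 1 library, with 0, 0, 0 and 0 to 1 members. In Cko (208) they were 0 with no filter, 513 with scaling to total reads, 397 by limma-voom, 466 with only the libraries compared, 423 without both WT replicates 1 and 0 to 387 without 1 library. Over both genotypes (3537) they were 1927 with no filter, 1851 without both WT replicates 1 and 1332 to 3669 without 1 library. Members called there were 0 with no filter, 2 with scaling to total reads (Pdgfrb, and Pdgfra at 0.49, adjusted p = 0.0440, limma), and 0 to 2 without 1 library; without both WT replicates 1 there was 1, Myh11, which fell by 0.80. Between genotypes under sham (3 genes) there were 1 with no filter and 1 to 4 without 1 library, and under TAC (0) there were 1 with only the libraries compared, 1 without both WT replicates 1 and 0 to 21 without 1 library. The interaction (1) had 2 with no filter and 1 to 3 without 1 library. The causes were not tested. Scaling to total reads turned the sign of uncalled values of Pdgfa over both genotypes, of Cnn1 in WT, and of Rgs5, Myh11 and Pdgfd in Cko.

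Replicate numbers share no stated source. The deviations of same-numbered libraries correlated at 0.0256 to 0.248 over the 6 pairs of groups, so they were not treated as paired; with a replicate block 2187 genes were called in WT, 236 in Cko and 3748 over both, 2, 0 and 1 in the genotype comparisons and the interaction, and Pdgfrb stayed the only member called (adjusted p = 0.0335 in WT), while Plat over both genotypes and Mfap5 in Cko lost their calls. With 10 to 47 reads of Tagln and 17 to 130 of Pdgfc per library, small changes in either were not detectable at this depth.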
